A study of Mus musculus with 18 samples.

Results

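The genes described here drive cells through division and copy their DNA. They were 49 genes named by symbol: cyclins and Cdk1 (9 genes), genes of mitosis and cytokinesis (20), genes of DNA replication and nucleotide supply (14), and inhibitors with E2F1 and its regulator Rb1 (6). Each was read on its probe set with the highest mean over the arrays. A probe set of 1 symbol was found for 48 of the 49, among 18193 such genes in all, and Ccnb1 was not analysed here. Of the 48, 39 lay above a filter on low signal and entered the tests over 13359 genes. The members were chosen by name and role, with earlier results of these data known, and not by their level.

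RNA of the ventricular myocardium was measured on 18 Affymetrix arrays. The 4 wild type samples came from C57Bl/6J mice, labelled as 6 months old, with up to 8 months in the design text. All 14 other samples came from ob/ob mice on the C57Bl/6J background, which lack functional leptin in every cell and are obese. These mice were labelled as 6 months old and were fed ad libitum (4 samples), calorie restricted to the intake of the leptin group (5 samples) or given leptin by osmotic mini-pump (5 samples), in each case for 1 month. The labels do not say that each array is a separate mouse, and p-values measure only the spread between these samples.

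Cyclin-dependent kinases are switched on by cyclins, whose levels rise and fall through the cycle. D-type cyclins act early, in G1, where their kinases relieve the hold of the retinoblastoma protein on E2F factors, and Cdk1 with A- and B-type cyclins drives entry into mitosis. Cardiomyocytes of the adult mouse rarely divide, while fibroblasts, endothelial cells and macrophages of the heart keep some capacity to do so. In such bulk tissue, fewer dividing cells and less RNA per cell cannot be told apart.

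Arrays were of similar brightness, with a median signal between 22.3 and 31.8, and the correlation of log2 signals between any pair of arrays lay between 0.943 and 0.971. The summed signal of 8 cardiomyocyte markers was 45500 to 67800 on every array. That sum cannot tell ventricle from atrium, and it was 54300 and 53300 on calorie restricted replicates 2 and 3. In the calorie restricted group, replicates 2 and 3 stood apart in atrial markers: Myl7, the atrial myosin light chain, gave 3450 and 3550 there and 3.58 to 635 on the other 3 arrays of the group. Calls of single members that involve this group are therefore given with and without these 2 arrays. So are the counts of lowest means, of calls in each comparison, of arrays that do not overlap and of called markers. Medians, counts by role or over any comparison, and counts near background are given with all arrays only.

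Of the 39 tested members, 19 (48.7%) had their lowest group mean in calorie restricted hearts, where 28.2% of all genes tested had theirs. The lowest mean lay in the leptin group for 10 members (25.6%, against 28.1% of all genes), in the ad libitum group for 6 (15.4%, against 19.8%) and in wild type for 4 (10.3%, against 23.9%). The count there was 20 without calorie restricted replicates 2 and 3 (51.3%, against 31.5% of all genes). Values are log2 differences of signal plus a pseudocount of 5.13, with the SE of a limma fit over all 18 arrays, and a call means an adjusted p under 0.05 (Benjamini-Hochberg, over all genes tested).

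Calorie restriction against ad libitum feeding called 5 members, all lower: Cdk1, Ccnd1, Ccnd2, Ccnd3 and Top2a. Of all genes tested, 2.96% were called lower and 2.46% higher in that comparison (5.42% in all). The median log2 difference was -0.21 over the members, 28 of 39 being negative, and -0.0016 over all genes. Leptin against calorie restriction called 9 members higher and 1 lower (Kif15), beside 7.91% and 5.73% of all genes (13.6% in all), with a median of 0.10 against -0.03 over all genes. Calorie restriction against wild type called 7 members lower and 1 higher, again Kif15, beside 6.24% and 5.02% of all genes (11.3% in all), with a median of -0.27 against 0.0025. These 3 comparisons share the calorie restricted arrays, so their values are not independent of each other.

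Outside that group few members were called. Ad libitum feeding against wild type called 1 member, Asf1b, which was higher, beside 0.112% of all genes called higher and 0.187% lower (0.299% in all). Leptin against ad libitum feeding called 1, Cdkn1c, also higher, beside 0.404% of all genes called higher and 0.24% lower (0.644% in all). Leptin against wild type called 0 members and 1 gene of all tested (0.00749%), while 7 members had an unadjusted p under 0.05 in the same limma fit, 4 higher and 3 lower, as had 10.0% of all genes. In total 14 members (35.9%) were called in at least 1 of the 6 comparisons, beside 18.3% of all genes. Of 97 other tested cell cycle genes, described further below, 10 (10.3%) were called in any comparison. Of the 14 members, 12 (85.7%) were called only in comparisons with the calorie restricted group, as were 95.8% of all genes called in any comparison. Both member counts include Kif15, which passed the filter through the calorie restricted group alone and so adds no support.

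**Figure D1:**
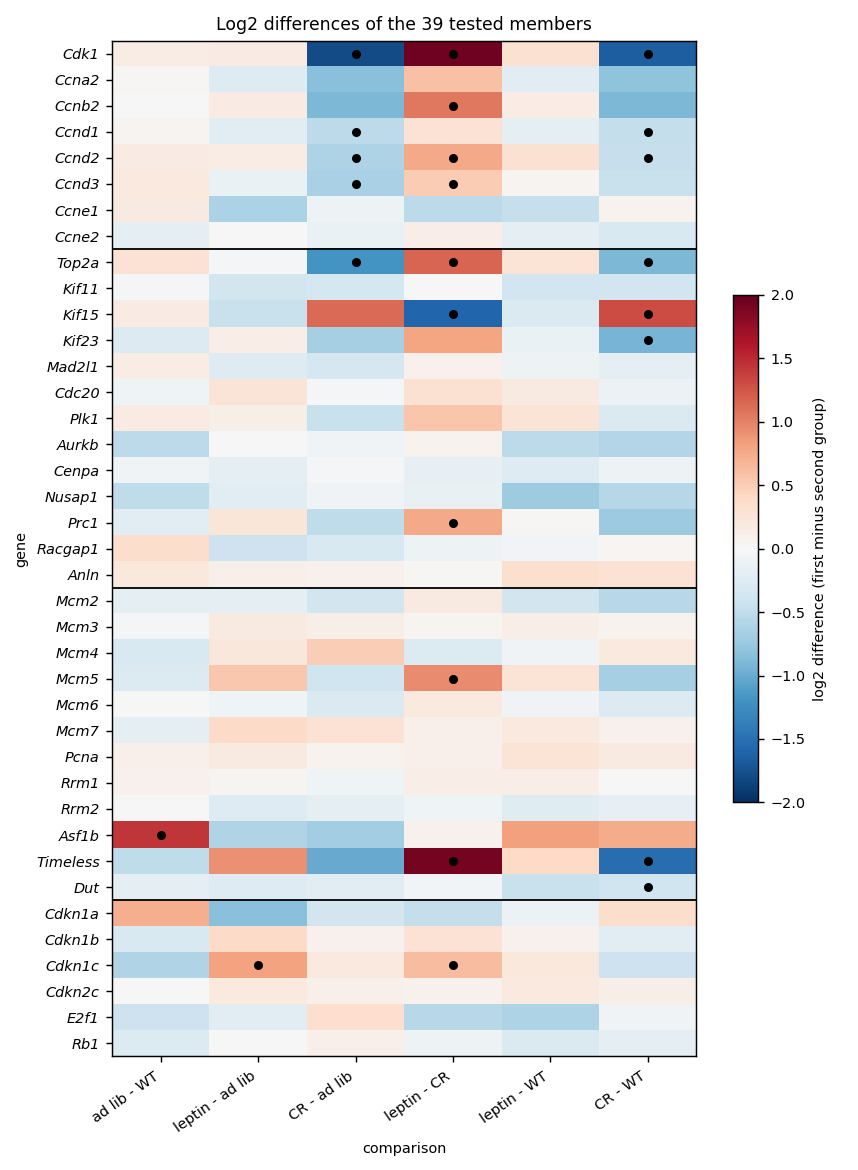
Log2 difference of each of the 39 tested members (rows, ordered by role, black lines between roles) in each of the 6 comparisons (columns, first minus second group); blue is lower in the first group, red higher, and a dot marks a call. The dots lie mainly in the 3 comparisons with the calorie restricted group (CR), where the cyclins are blue against ad libitum feeding and mostly red in leptin minus CR.

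Counts of arrays that do not overlap tell the same comparisons without a model. In 5 members every calorie restricted array lay below every ad libitum array, against 4.87% of all genes, and in 0 members above it, against 4.33%. Between calorie restriction and wild type, 8 members lay entirely below (6.89% of all genes) and 1 entirely above (6.68%). Between leptin and calorie restriction, 5 members lay entirely above (6.3%) and 1 entirely below (4.57%). Between ad libitum feeding and wild type the counts were 2 above (3.65%) and 3 below (3.41%), between leptin and ad libitum feeding 3 above (2.81%) and 3 below (2.53%), and between leptin and wild type 1 above (1.59%) and 1 below (1.65%). Without calorie restricted replicates 2 and 3, 7 members lay below ad libitum feeding (7.92% of all genes) and 0 above (6.09%), 10 below wild type (9.92%) and 1 above (9.06%), and the leptin arrays lay above calorie restriction in 6 (8.97%) and below in 1 (6.13%).

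Among the cyclins and Cdk1, all 8 tested genes had a lower estimate in calorie restriction than in ad libitum feeding, with a median log2 difference of -0.63, and 4 of them were called. In any comparison 5 of 8 were called, beside 18.3% of all genes. Cdk1 is the kinase of mitotic entry. Its signals were 13.0, 20.8, 29.2 and 29.8 in wild type, 19.4, 21.0, 30.0 and 31.8 in ad libitum, 1.79, 1.85, 2.99, 4.74 and 8.02 in calorie restricted and 7.39, 18.8, 26.5, 55.7 and 69.5 in leptin hearts. Every calorie restricted array lay below every wild type and ad libitum array, while 1 leptin array fell within the calorie restricted range. Cdk1 was lower in calorie restriction than in ad libitum feeding by -1.79 ± 0.40 (adjusted p = 0.0146) and than in wild type by -1.65 ± 0.40 (0.0136), and higher with leptin than with calorie restriction by 1.95 ± 0.38 (0.00285). Since 4 of the 5 calorie restricted signals lay under the pseudocount, these sizes depend on it: the difference from ad libitum feeding was -2.23 with a pseudocount of 2.3 and -1.03 with one of 16.8, called in both. Without calorie restricted replicates 2 and 3, Cdk1 was still called in leptin against calorie restriction (1.80, adjusted p = 0.0271), but not against ad libitum feeding (-1.64, 0.0915) or wild type (-1.50, 0.0799).

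Ccnb2 encodes a B-type cyclin, a partner of Cdk1. It measured 10.7, 17.04, 26.9 and 35.8 in wild type, 16.8, 19.5, 20.2 and 28.2 in ad libitum, 2.74, 4.14, 10.8, 14.2 and 18.6 in calorie restricted and 12.6, 19.2, 25.6, 28.8 and 40.2 in leptin hearts. The 2 lowest calorie restricted arrays lay below all others, and the groups overlapped. Only leptin against calorie restriction was called (1.05 ± 0.32, adjusted p = 0.0381), and this call was lost without any 1 of calorie restricted replicates 1, 3 and 5 or leptin replicates 2, 3, 4 and 5 (adjusted p up to 0.102) and without calorie restricted replicates 2 and 3 together (0.93, 0.126). Ccna2, the A-type cyclin of S phase and G2, had group means of 52.4 ± 18.8 (SD, n = 4) in wild type, 51.5 ± 6.82 (n = 4) in ad libitum, 29.4 ± 15.1 (n = 5) in calorie restricted and 44.3 ± 15.6 (n = 5) in leptin hearts and was not called.

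The 3 D-type cyclins, which couple growth signals to the G1 kinases, were all called lower in calorie restriction than in ad libitum feeding. Ccnd2 gave the smallest p of all members. Its signals were 570, 605, 615 and 730 in wild type, 646, 679, 684 and 805 in ad libitum, 399, 445, 456, 487 and 499 in calorie restricted and 741, 755, 766, 796 and 823 in leptin hearts. The 5 calorie restricted arrays lay below all 13 others, and the 5 leptin arrays lay above all 4 wild type arrays. Ccnd2 was lower in calorie restriction by -0.62 ± 0.09 against ad libitum feeding (adjusted p = 0.000792) and by -0.46 ± 0.09 against wild type (0.00353), and higher with leptin than with calorie restriction by 0.76 ± 0.08 (3.46e-05). The 6 other Ccnd2 probe sets above the filter had the same sign in all 3 comparisons, from -0.67 to -0.44 against ad libitum feeding. All 3 calls held under every alternative that was run, with -0.65, -0.49 and 0.79 without calorie restricted replicates 2 and 3.

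Ccnd1 measured 455, 508, 523 and 538 in wild type, 470, 508, 531 and 593 in ad libitum, 311, 331, 391, 395 and 396 in calorie restricted and 393, 430, 434, 467 and 514 in leptin hearts. All calorie restricted arrays lay below the wild type and ad libitum arrays, and the leptin arrays overlapped both sides. The gene was lower in calorie restriction by -0.52 ± 0.10 against ad libitum feeding (adjusted p = 0.00578) and by -0.47 ± 0.10 against wild type (0.00611), with 2 of 2 other probe sets of the same sign. Both calls held under every alternative that was run, while the difference between leptin and calorie restriction was not called (0.29, adjusted p = 0.0508).

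Ccnd3 gave 312, 338, 341 and 448 in wild type, 368, 389, 425 and 462 in ad libitum, 212, 234, 237, 261 and 391 in calorie restricted and 347, 348, 374, 394 and 401 in leptin hearts. In the calorie restricted group 4 arrays lay below all others and replicate 4 lay among them. It was called lower in calorie restriction than in ad libitum feeding (-0.64 ± 0.15, adjusted p = 0.0172) and higher with leptin than with calorie restriction (0.51 ± 0.14, 0.0233). A dimmer Ccnd3 probe set, also above the filter, differed in sign in both comparisons (0.42 and -0.15), and with probe sets averaged the differences turned to 0.13 and -0.08 and neither was called. Single arrays also decided these calls: the first was lost without ad libitum replicate 2 or 3 (adjusted p up to 0.053), the second without calorie restricted replicate 1, 2 or 3 or leptin replicate 1 or 5 (up to 0.0605), and both without calorie restricted replicates 2 and 3 together (-0.55, adjusted p = 0.121, and 0.41, 0.153). The E-type cyclins of S phase entry, Ccne1 and Ccne2, were not called, with group means of 37.3 to 53.3 and 20.3 to 26.3. Of the 2 Ccne1 probe sets above the filter, the dimmer one had -1.33 between calorie restriction and ad libitum feeding where the one used had -0.10.

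**Figure D2:**
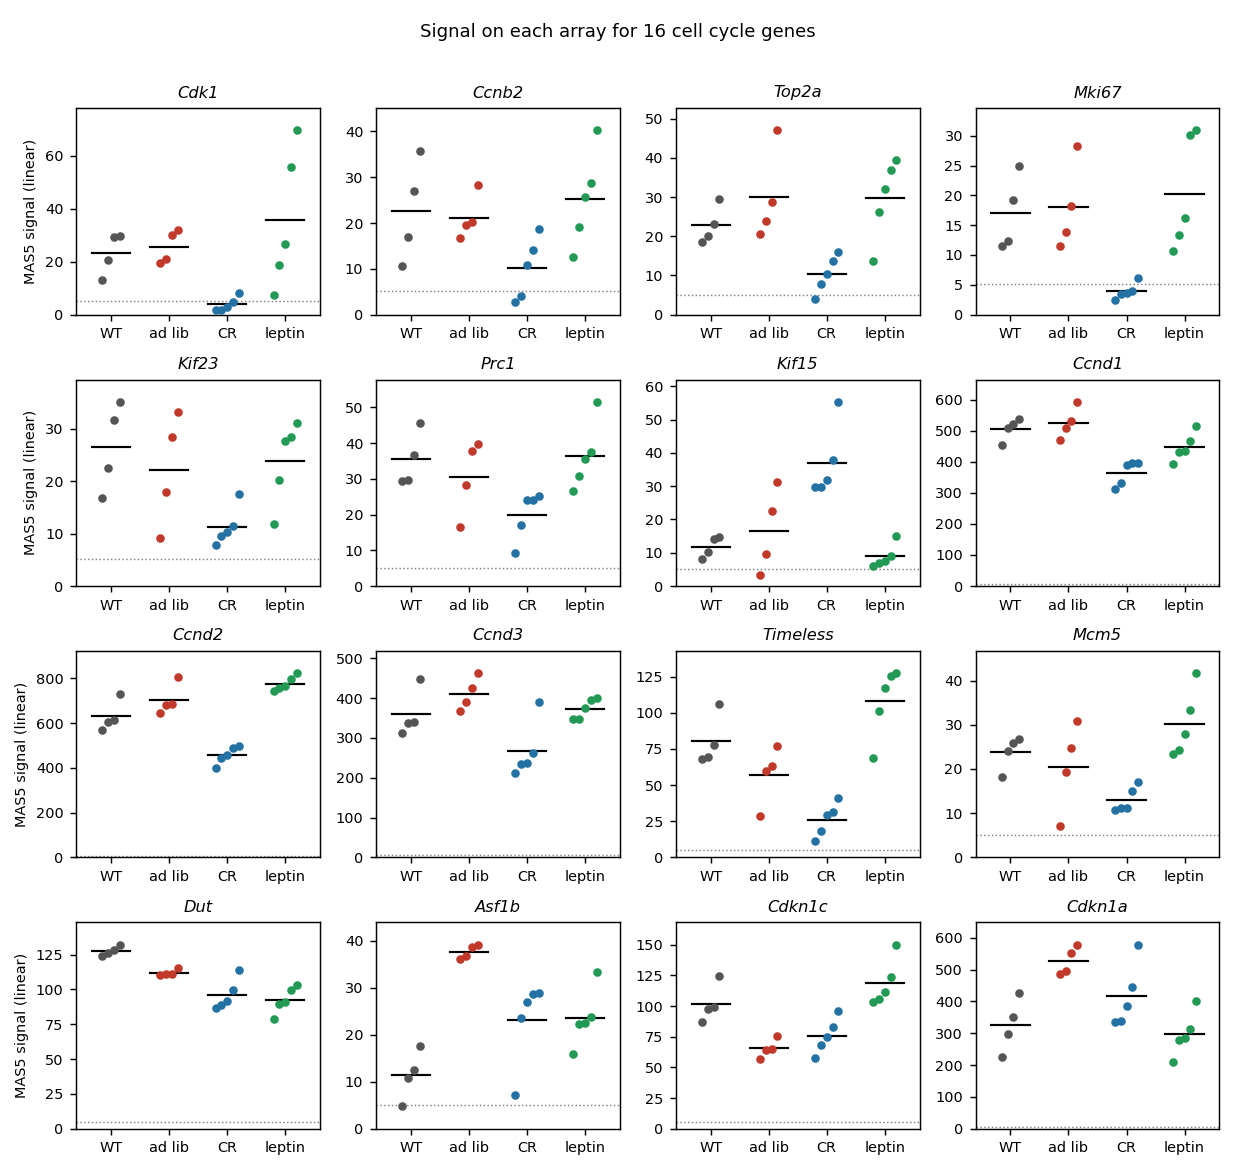
MAS5 signal (linear, 1 point per array) of 16 genes in the 4 groups, with the group mean as a bar and the pseudocount of 5.13 as a dotted line; these are the 14 called members with Mki67 and Cdkn1a. The calorie restricted (CR) mean is the lowest for Cdk1, Mki67, Ccnd2 and Top2a and the highest for Kif15, and the 4 ad libitum points of Asf1b lie above all others.

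Genes of mitosis and cytokinesis gave 4 members called in any comparison of 13 tested (30.8%, beside 18.3% of all genes). Kif15 is among the 4, but it passed the filter through the calorie restricted group alone, so its calls are no support. Top2a, the topoisomerase that untangles replicated chromosomes, measured 18.5, 20.1, 23.2 and 29.5 in wild type, 20.6, 24.0, 28.7 and 47.0 in ad libitum, 3.91, 7.70, 10.3, 13.7 and 16.1 in calorie restricted and 13.6, 26.3, 32.2, 37.0 and 39.5 in leptin hearts. Calorie restricted arrays lay below all wild type and ad libitum arrays, and 1 leptin array reached into their range. Top2a was lower in calorie restriction by -1.19 ± 0.28 against ad libitum feeding (adjusted p = 0.0177) and by -0.90 ± 0.28 against wild type (0.0454), and higher with leptin by 1.17 ± 0.26 against calorie restriction (0.0068). The leptin call held without calorie restricted replicates 2 and 3 (1.05, 0.0342) and the others did not (-1.07, 0.0714, and -0.78, 0.137). The ad libitum call was also lost without ad libitum replicate 3 (-0.99, 0.0692), and the wild type call without any 1 wild type array or calorie restricted replicate 2, 4 or 5 (up to 0.123).

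Kif23, a kinesin of the central spindle, measured 16.8, 22.5, 31.7 and 35.2 in wild type, 9.15, 17.9, 28.4 and 33.2 in ad libitum, 7.82, 9.46, 10.3, 11.5 and 17.7 in calorie restricted and 11.8, 20.2, 27.8, 28.4 and 31.0 in leptin hearts. The groups overlapped by single arrays. It was called lower in calorie restriction than in wild type (-0.93 ± 0.28, adjusted p = 0.0445), a call lost without calorie restricted replicate 1, 2, 3 or 5 or wild type replicate 2, 3 or 4 (up to 0.138), and without calorie restricted replicates 2 and 3 together (-0.86, 0.163).

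Prc1, which bundles microtubules at the same central spindle, measured 29.5, 29.7, 36.8 and 45.8 in wild type, 16.5, 28.2, 37.8 and 39.8 in ad libitum, 9.17, 17.04, 24.1, 24.1 and 25.2 in calorie restricted and 26.6, 30.9, 35.6, 37.5 and 51.6 in leptin hearts. All calorie restricted arrays lay below all wild type and leptin arrays. It was called higher with leptin than with calorie restriction (0.75 ± 0.23, adjusted p = 0.0402), and the call was lost without calorie restricted replicate 3 or 4 or leptin replicate 1, 2, 3 or 5 (up to 0.0993), and at the same p without calorie restricted replicates 2 and 3 together (0.81). Its probe set is of a type that can bind related transcripts, as the suffix of its name shows. The same caution applies to the sets used for Mcm5, Ccne1, Aurkb, Rrm2, Mcm2, Mcm3 and Mcm7.

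Kif15, a kinesin that helps hold the spindle poles apart, had its highest mean in calorie restricted hearts. It passed the filter of 4.36 through that group alone: its mean log2 signal was 5.36 there, 4.06 in wild type, 4.23 in ad libitum and 3.78 in leptin hearts. A member admitted in this way had to differ between groups, so its calls below are a description and no support. Of the other tested members, 29 had means above the filter in all 4 groups and 9 in 3. Its signals were 8.11, 10.1, 14.2 and 14.7 in wild type, 3.24, 9.63, 22.4 and 31.3 in ad libitum, 29.7, 29.9, 31.9, 38.0 and 55.4 in calorie restricted and 6.13, 6.90, 7.39, 9.16 and 14.9 in leptin hearts. All calorie restricted arrays lay above all wild type and leptin arrays. Kif15 was lower with leptin than with calorie restriction (-1.58 ± 0.31, adjusted p = 0.00288) and higher in calorie restriction than in wild type (1.30 ± 0.33, 0.0162), while calorie restriction against ad libitum feeding was not called (1.13, 0.0538). Without calorie restricted replicates 2 and 3 the first was still called (-1.64, 0.0161) and the second was not (1.36, 0.054), nor was the second without wild type replicate 3 (1.19, 0.0504).

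The 9 other tested genes of this role were not called in any comparison, and their highest group mean was 1.16 (Cenpa) to 1.69 (Nusap1) times the lowest. They cover the spindle motor Kif11, the checkpoint protein Mad2l1, the anaphase activator Cdc20, the kinases Plk1 and Aurkb, the centromeric histone Cenpa, the spindle protein Nusap1, and Racgap1 and Anln of the cleavage furrow. Mad2l1 had means of 50.8, 56.5, 45.0 and 47.4 in wild type, ad libitum, calorie restricted and leptin hearts, and Cdc20 had 80.7, 74.7, 73.9 and 90.9 in the same order. Plk1, Mad2l1, Cdc20 and Aurkb were lowest in the calorie restricted group, Kif11, Cenpa, Nusap1 and Racgap1 in the leptin group and Anln in wild type. Dimmer sets above the filter differed in part. For Cenpa the means were 42.0 in wild type and 16.5 in leptin hearts. For Kif11 the lowest mean lay in calorie restricted hearts (14.5). For Cdc20 calorie restriction against ad libitum feeding gave -0.52, where the set used gave -0.04.

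Promoters of 4 called members that share letters were picked for display. Single matches in the other called members are not given. The choice of members did not use these letters. The homology region marked below was found in 15 of 19 promoters of mitosis and cytokinesis genes, of which 4 of 13 tested were called. From RefSeq (GRCm38.p6), the 250 bases before and 50 after a transcript's start were found for 40 of the 49 members, 45 promoters in all. Capitals mark the cell cycle homology region (TTTGAA, or TTCAAA on the other strand) and the CCAAT box (CCAAT or ATTGG) in Cdk1 (chr10:69352863-69353162, minus strand), Top2a (chr11:99024140-99024439, minus), Ccnb2 (chr9:70421505-70421804, minus) and Kif23 (chr9:61946750-61947049, minus). In Mcm5 (chr8:75109259-75109558, plus strand), a called replication gene, they mark an E2F site (TTTCCCGC, TTTGGCGC, TTTCGCGC or TTTGCCGC, either strand) and the CCAAT box.
Cdk1: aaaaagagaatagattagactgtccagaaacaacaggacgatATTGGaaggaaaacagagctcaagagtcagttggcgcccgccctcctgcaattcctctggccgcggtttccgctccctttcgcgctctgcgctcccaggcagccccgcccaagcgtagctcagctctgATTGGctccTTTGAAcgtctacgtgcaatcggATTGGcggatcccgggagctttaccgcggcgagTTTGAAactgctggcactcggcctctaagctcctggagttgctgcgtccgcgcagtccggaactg
Top2a: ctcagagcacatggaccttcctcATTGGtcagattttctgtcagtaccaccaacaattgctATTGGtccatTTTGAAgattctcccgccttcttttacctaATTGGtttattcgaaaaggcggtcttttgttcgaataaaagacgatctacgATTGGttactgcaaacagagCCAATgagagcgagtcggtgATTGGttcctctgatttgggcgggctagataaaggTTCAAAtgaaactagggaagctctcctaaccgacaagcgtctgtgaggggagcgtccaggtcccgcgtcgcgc
Ccnb2: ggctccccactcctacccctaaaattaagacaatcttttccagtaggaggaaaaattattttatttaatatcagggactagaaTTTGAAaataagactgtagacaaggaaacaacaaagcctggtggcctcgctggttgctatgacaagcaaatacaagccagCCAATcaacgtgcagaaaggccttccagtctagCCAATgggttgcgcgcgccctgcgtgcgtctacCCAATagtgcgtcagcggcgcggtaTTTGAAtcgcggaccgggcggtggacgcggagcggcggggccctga
Kif23: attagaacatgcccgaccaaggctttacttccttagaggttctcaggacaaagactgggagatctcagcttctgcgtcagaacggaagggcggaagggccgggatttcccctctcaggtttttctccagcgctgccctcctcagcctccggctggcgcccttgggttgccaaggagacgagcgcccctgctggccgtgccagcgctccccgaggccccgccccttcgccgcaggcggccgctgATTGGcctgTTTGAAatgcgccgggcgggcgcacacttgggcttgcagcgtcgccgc
Mcm5: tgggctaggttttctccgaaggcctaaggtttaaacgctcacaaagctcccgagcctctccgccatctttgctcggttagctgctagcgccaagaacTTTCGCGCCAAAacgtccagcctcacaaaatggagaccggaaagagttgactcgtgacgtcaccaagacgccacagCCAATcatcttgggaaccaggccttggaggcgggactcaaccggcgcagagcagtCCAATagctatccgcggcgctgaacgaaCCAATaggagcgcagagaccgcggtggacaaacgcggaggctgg

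The homology region was found in 15 of 19 promoters of mitosis and cytokinesis genes (78.9%), in 2 of 6 of cyclins and Cdk1, in 2 of 14 of replication genes (14.3%) and in 0 of 6 of the inhibitors and the E2F axis, against 17.9% of 32851 promoters in the table. Together with a CCAAT box it was found in 13 of those 19 (68.4%) and in 6.95% of all promoters. The CCAAT box, with or without the homology region, was found in 30 of 45 promoters of members (66.7%) and in 37.4% of all promoters. The E2F letters were found in 4 of 14 promoters of replication genes (28.6%), in 1 of 6 of cyclins and Cdk1 (16.7%), in 1 of 19 of mitosis genes, in 0 of 6 of the inhibitors and the E2F axis and in 2.26% of all promoters. The match among the cyclins and Cdk1 lies in Cdk1 itself (TTTCGCGC, 131 bases before the start), and it is left in lower case in the sequence shown. In Cdk1 the homology region starts 71 and 15 bases before the transcript start, and in Top2a 179 and 23 bases before it. In Mcm5 the E2F letters start 153 bases before the start on the given strand, and a match on the other strand at 149 bases overlaps it. A match of letters is a description and was not tested against the signals.

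DNA replication and nucleotide supply gave 4 members called in any comparison of 12 tested (33.3%, beside 18.3% of all genes). Timeless, a fork protection protein, measured 67.7, 69.5, 77.7 and 106 in wild type, 28.3, 59.6, 63.2 and 76.7 in ad libitum, 11.3, 18.04, 29.2, 31.3 and 41.0 in calorie restricted and 68.4, 101.3, 117, 125 and 127 in leptin hearts. Calorie restricted arrays lay below all wild type and leptin arrays and overlapped 1 ad libitum array. It was higher with leptin than with calorie restriction by 1.91 ± 0.28 (adjusted p = 0.000282) and lower in calorie restriction than in wild type by -1.52 ± 0.29 (0.00312), both called under every alternative that was run, with 1.73 (0.00249) and -1.34 (0.0166) without calorie restricted replicates 2 and 3. Against ad libitum feeding it was not called (-1.003, 0.057). A dimmer Timeless probe set, under the filter, gave -0.22 between leptin and calorie restriction. It gave 0.195 between calorie restriction and wild type and 0.474 between calorie restriction and ad libitum feeding. All 3 signs were opposite to those of the set used.

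Mcm5, a subunit of the replicative helicase, measured 18.1, 24.2, 25.96 and 26.8 in wild type, 7.07, 19.4, 24.8 and 30.8 in ad libitum, 10.7, 11.1, 11.2, 15.0 and 17.1 in calorie restricted and 23.4, 24.3, 27.9, 33.2 and 41.7 in leptin hearts. Leptin and calorie restricted arrays did not overlap. It was higher with leptin than with calorie restriction (0.94 ± 0.23, adjusted p = 0.0112), with 1 of 1 other probe set of the same sign (0.72), and was not called without calorie restricted replicates 2 and 3 (0.85, 0.079). The 5 other helicase subunits tested, Mcm2, Mcm3, Mcm4, Mcm6 and Mcm7, were not called. Their group means did not share an order: Mcm2 and Mcm6 were lowest in calorie restricted hearts (71.0 ± 10.8 and 60.6 ± 12.2, SD, n = 5), while Mcm3, Mcm4 and Mcm7 were lowest in ad libitum hearts (43.6 ± 7.05, 66.1 ± 15.2 and 127 ± 9.18, n = 4). Mcm2 was the nearest to a call, in calorie restriction against wild type (-0.56, adjusted p = 0.0525).

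Dut, which removes dUTP from the nucleotide pool, measured 124, 126, 128 and 132 in wild type, 110.0, 111, 111 and 115 in ad libitum, 86.7, 88.9, 91.4, 99.5 and 114 in calorie restricted and 79.0, 89.2, 91.3, 99.5 and 103 in leptin hearts. All 5 calorie restricted, all 5 leptin and all 4 ad libitum arrays lay below all 4 wild type arrays. Dut was called lower in calorie restriction than in wild type (-0.40 ± 0.09, adjusted p = 0.00686), but not without calorie restricted replicates 2 and 3 (-0.33, 0.0598). Against wild type, leptin (-0.45, 0.159) and ad libitum feeding (-0.18, 0.518) were not called. A dimmer Dut probe set, also above the filter, gave -0.71 between calorie restriction and wild type. Between leptin and wild type it gave 0.078, of the opposite sign to the set used.

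Asf1b, a histone chaperone, was the single member called in ad libitum feeding against wild type. It measured 4.93, 10.8, 12.4 and 17.5 in wild type, 36.1, 36.7, 38.7 and 39.1 in ad libitum, 7.25, 23.6, 27.0, 28.5 and 28.8 in calorie restricted and 15.9, 22.3, 22.5, 23.7 and 33.3 in leptin hearts. The 4 ad libitum arrays lay above all 14 others. The difference from wild type was 1.43 ± 0.29 (adjusted p = 0.0474), and leaving out any 1 of the 8 arrays ended the call (adjusted p between 0.0695 and 0.144, log2 difference between 1.21 and 1.60). The remaining tested members of this role were not called: Pcna, the sliding clamp, with group means of 512 to 623, and Rrm1 and Rrm2, the subunits of ribonucleotide reductase, with 105 to 115 and 37.3 to 44.3.

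Of the inhibitors and the E2F axis, 1 of 6 was called in any comparison (16.7%, beside 18.3% of all genes), and 0 of 6 had their lowest mean in calorie restricted hearts. Cdkn1c (p57), an imprinted inhibitor of cyclin-dependent kinases, measured 87.2, 97.2, 99.2 and 124 in wild type, 56.6, 63.9, 65.2 and 75.9 in ad libitum, 57.5, 68.6, 74.7, 83.1 and 95.7 in calorie restricted and 103, 106, 111, 124 and 150 in leptin hearts. Leptin arrays lay above all ad libitum and calorie restricted arrays and overlapped wild type. Cdkn1c was higher with leptin by 0.81 ± 0.14 against ad libitum feeding (adjusted p = 0.0139) and by 0.62 ± 0.13 against calorie restriction (0.00579), the latter under every alternative that was run (0.63, 0.029, without calorie restricted replicates 2 and 3). The former was lost without ad libitum replicate 3 (0.80, 0.0511).

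Cdkn1a (p21), the inhibitor induced by p53, measured 227, 298, 350 and 426 in wild type, 485, 495, 551 and 577 in ad libitum, 336, 338, 385, 446 and 578 in calorie restricted and 211, 279, 286, 313 and 401 in leptin hearts. Every ad libitum array lay above every wild type and leptin array, yet it was not called in leptin against ad libitum feeding (-0.84, adjusted p = 0.0638) or in ad libitum feeding against wild type (0.72, 0.168). Cdkn1b (p27), Cdkn2c (p18), Rb1 and E2f1 were not called. Their group means were 266 to 349, 179 to 206, 223 to 272 and 17.3 to 26.8, and E2f1 spanned 2.06 to 44.0 over single arrays.

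**Figure D3:**
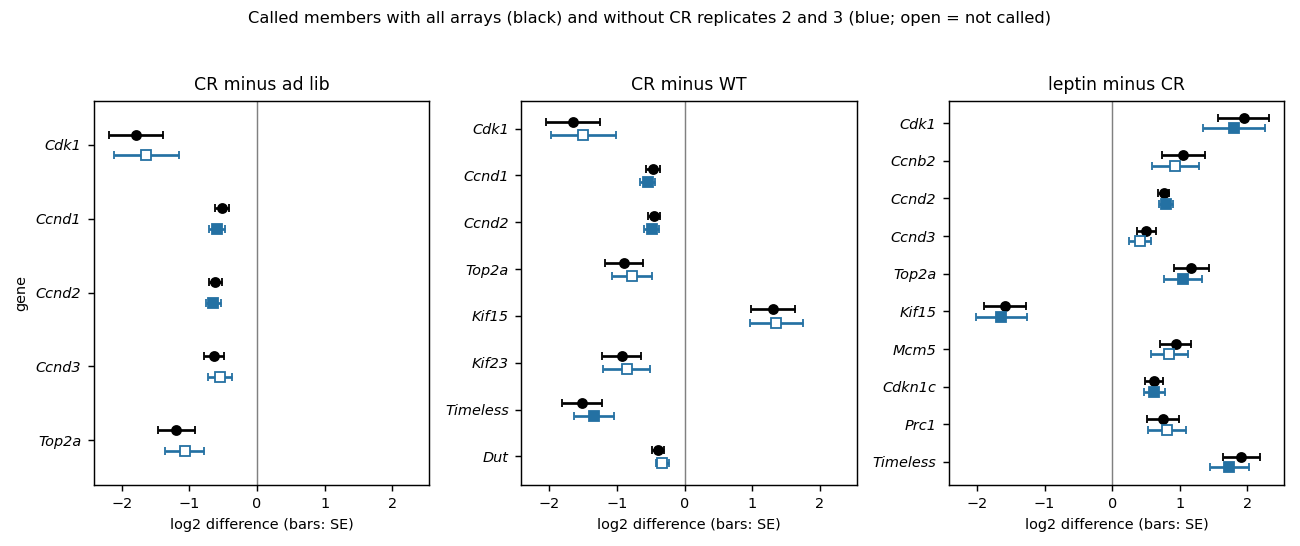
Log2 difference with its SE (bars) of the called members in the 3 comparisons with the calorie restricted group (CR), with all arrays (black) and without CR replicates 2 and 3 (blue; filled where still called). All points stay on their side of 0, and the calls kept are 2 of 5 against ad libitum, 3 of 8 against wild type and 6 of 10 in leptin minus CR.

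Without calorie restricted replicates 2 and 3, all 23 called differences that involve this group kept their direction, and 11 of them stayed called. The kept calls were Ccnd1 and Ccnd2 against ad libitum feeding, those and Timeless against wild type, and Cdk1, Ccnd2, Top2a, Kif15, Cdkn1c and Timeless in leptin against calorie restriction. The kept call of Kif15 is a description and no support, as given above. With fewer arrays, the number of genes called over all genes also fell, to 352, 891 and 1026 from 724, 1504 and 1822.

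Several members were near background. Under the filter lay 9 of the 48: Mki67, Kif20a, Bub1, Bub1b, Aurka, Birc5, Ube2c, Tyms and Tk1. They encode the proliferation marker Ki-67, a kinesin of cytokinesis, a pair of spindle checkpoint kinases, Aurora A, survivin, an anaphase ubiquitin-conjugating enzyme, thymidylate synthase and thymidine kinase. A group mean under 5.13, the 20th percentile of all signals, was found for Cdk1, Mki67, Birc5, Ube2c and Tk1 in calorie restricted hearts, Bub1 and Tk1 in ad libitum hearts and Tk1 in wild type, and for 0 members in leptin hearts. On single arrays, 5 to 8 of the 48 lay under that signal in calorie restricted hearts, against 1 to 4 in wild type, 1 to 5 in ad libitum and 1 to 5 in leptin hearts, while the share over all probe sets was alike, 16.7% to 22.7% in calorie restricted hearts and 17.9% to 22.2% over the arrays of the other groups.

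Mki67 was the clearest of these. Its signals were 11.6, 12.4, 19.3 and 24.9 in wild type, 11.5, 13.9, 18.3 and 28.3 in ad libitum, 2.44, 3.38, 3.66, 3.98 and 6.16 in calorie restricted and 10.7, 13.4, 16.1, 30.1 and 30.9 in leptin hearts. All 5 calorie restricted arrays lay below all 13 others, with 4 of them under the pseudocount. With no filter, limma called it lower in calorie restriction than in ad libitum feeding (-1.31 ± 0.27, adjusted p = 0.0118) and wild type (-1.26 ± 0.27, 0.00829) and higher with leptin than with calorie restriction (1.42 ± 0.25, 0.00227). It was called without calorie restricted replicates 2 and 3 as well, in the same 3 comparisons (adjusted p = 0.0432 against ad libitum feeding, 0.0293 against wild type and 0.0116 for leptin against calorie restriction). The 8 other members under the filter were not called in either fit. Birc5 spanned 1.08 to 5.64 in calorie restricted and 1.97 to 32.4 over all other hearts, and Ube2c had means of 23.2, 13.7, 4.82 and 17.03 in wild type, ad libitum, calorie restricted and leptin hearts.

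**Figure D4:**
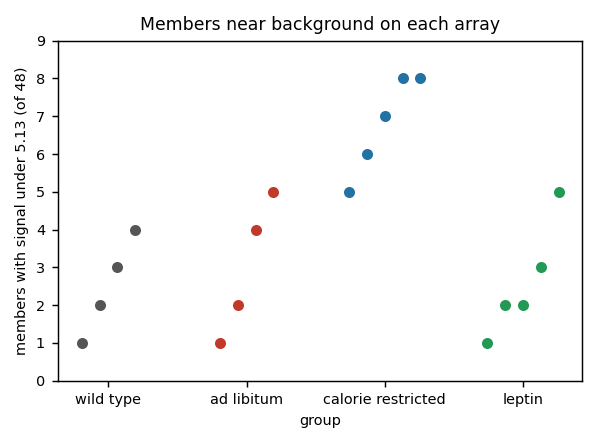
Number of the 48 measured members with a signal under 5.13 on each array (1 point per array), by group. Calorie restricted arrays have 5 to 8 such members and arrays of the other groups 1 to 5.

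Other genes of the cell cycle and of replication, 127 by name and 97 tested, were called in the 3 comparisons with the calorie restricted group. In any comparison 10 of them (10.3%) were called, beside 18.3% of all genes. Of the 97, calorie restriction called 2.06% against ad libitum feeding (5.42% of all genes) and 7.22% against wild type (11.3%), and leptin against calorie restriction called 7.22% (13.6%). Calorie restriction against ad libitum feeding called 2 of 97, both higher: Tfdp2, a partner of E2F factors (0.56, adjusted p = 0.0175), and Asf1a, the paralogue of Asf1b (0.40, 0.0325). Leptin against calorie restriction called 6 higher and 1 lower. The higher genes were the replication licensing factor Cdt1 (0.59, 0.00284), the condensin subunit Smc4 (0.56, 0.00382), the chromosome motor Kif22 (0.73, 0.0109), E2f6, Ckap2 and Pold3, and the lower one was Rpa2, which binds single-stranded DNA (-0.63, 0.00483). Calorie restriction against wild type called 4 higher (Rpa2, Asf1a, Tfdp2 and Fzr1) and 3 lower (Cdt1, Smc4 and E2f6). Against ad libitum feeding, Tfdp2 (0.52, 0.0973) and Asf1a (0.37, 0.141) lost their calls when calorie restricted replicates 2 and 3 were left out. Cdt1 (0.71, 0.00319), Smc4 (0.66, 0.00399), Kif22 (0.94, 0.00737) and Rpa2 (-0.59, 0.0358) were then still called in leptin against calorie restriction. The 3 comparisons without the calorie restricted group called 0 of 97 in limma. Of all genes they called 0.299% in ad libitum feeding against wild type, 0.644% in leptin against ad libitum feeding and 0.00749% in leptin against wild type. In leptin against wild type, 11 of the 97 had an unadjusted p under 0.05 in limma, beside 10% of all genes.

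Markers of fibroblasts and macrophages changed in the same comparisons. Of 8 fibroblast markers, 6 were called lower in calorie restriction than in ad libitum feeding, 6 lower than in wild type and 6 higher with leptin than with calorie restriction. Their summed signal was 4250 to 5630 in calorie restricted, 5730 to 6530 in ad libitum, 6080 to 7510 in leptin and 5520 to 10500 in wild type hearts. Of 8 macrophage markers, 3, 7 and 7 were called in the same directions, with sums of 1780 to 2490, 2540 to 3350, 3130 to 4390 and 2820 to 5040. Endothelial markers gave 2, 0 and 3 of 8, with sums of 2190 to 2510, 2660 to 3270, 2830 to 3180 and 2300 to 3030. Lymphocyte markers gave 0, 1 and 1 of 5 tested, with sums of 165 to 236 in calorie restricted hearts and 204 to 271 over the others, and 1 of the 7 measured had a mean under the pseudocount in wild type. The 5 smooth muscle and pericyte markers differed from these: 1 was called higher in calorie restriction than in ad libitum feeding, 1 higher and 1 lower than in wild type, and 1 higher with leptin than with calorie restriction. Their sums were 3680 to 4620 in calorie restricted, 3920 to 4180 in ad libitum, 3250 to 4350 in leptin and 3480 to 3790 in wild type hearts. Of 2 erythroid markers tested, 1 was called, lower in calorie restriction than in wild type. Of the ventricular cardiomyocyte markers 0 of 8 and of the atrial markers 0 of 7 were called in any comparison. Without calorie restricted replicates 2 and 3, fibroblast markers gave 4, 6 and 6 of 8 calls against ad libitum feeding, against wild type and in leptin against calorie restriction, macrophage markers 0, 7 and 7, endothelial markers 0, 0 and 3 and lymphocyte markers 0, 1 and 1 of 5. Smooth muscle and pericyte markers then gave 0, 0 and 1 of 5 and erythroid markers 0 of 2 in each. The part of these marker changes in the changes of the cell cycle genes was not tested.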

How the data were processed

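The deposited table gives a linear intensity for each probe set on each array. Per the submitters' processing notes the authors used MAS5, which combines matched and mismatched probes. Its version was not given in the sources used here. The mean of each deposited array after trimming 2% at each end was 100.001, so total signal cannot be compared between arrays.

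Samples were grouped by their labels. Of 45101 probe sets, 64 were controls, 34945 had 1 symbol in the platform annotation, 932 had several and 9160 were not listed. The brightest set represented each gene. Intensities were transformed to log2(signal + 5.13), the 20th percentile, and genes with a mean under 4.36, the 40th percentile, were left out. Log2 differences understate changes at low signal. R 4.3.3 with limma 3.58.1 fitted 1 model over 18 arrays with 4 group means and 6 two-sided contrasts, with Benjamini-Hochberg adjustment over 13359 genes. All adjusted p-values for single genes come from limma. The procedure was tested on simulated data with independent normal noise, in calorie restriction against ad libitum feeding. Of 100 genes changed 1.5-fold 50% were called, of 100 changed 2-fold 86%, and 4.9% of calls were false. A gene that was not called is therefore not shown to be unchanged. The number of arrays limits the precision.

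Members called in any comparison are given array by array, other members by group means or ranges, and up to 3 uncalled members per comparison may be named by p; Mki67 was singled out after its values were seen. Of the other cell cycle genes, the called genes with the smallest p are named. The members, lists and rules were chosen with earlier results of these data known. Alternatives covered the pseudocount, filter, normalization, probe sets, prior, blocks, covariates and arrays left out. Replicate numbers gave no sign of pairing. The deviations of 25 same-numbered pairs of arrays had a mean correlation of -0.0212, with 1 pair over 0.1, at 0.345. The 96 different-numbered pairs had a mean of 0.00547, with 17 over 0.1. A mean near 0 cannot exclude a pairing of some samples.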

Additional observations from a re-analysis of the deposited data

Results flagged for a closer look

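Among 192 sets of 4 or 5 arrays of 1 group and gene, 11 held an array set apart from the rest of its group by Dixon's test at the 95% level, which chance does in about 1 in 20. The array was low in 6 and high in 5.

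Plk1 measured 2.45 on wild type replicate 3 and 24.7 to 27.6 on the other 3. Mcm4 measured 43.1 on leptin replicate 4 and 84.7 to 91.4 on the others of its group. Asf1b measured 7.25 on calorie restricted replicate 4 and 23.6 to 28.8 on the others. Cenpa measured 340.0 on ad libitum replicate 1 and 259 to 267 on the others.

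Smaller gaps were found for Pcna, with 525 on calorie restricted replicate 1 and 586 to 599 on the others, and for Rrm1, with 99.4 on leptin replicate 2 and 116 to 122 on the others. Rrm2 gave 51.7 on calorie restricted replicate 1 and 31.3 to 35.9 on the others. Anln gave 20 on ad libitum replicate 2 and 14.7 to 15.4 on the others.

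The remaining 3 concern genes under the filter, whose signals are near background. Kif20a was 1.78 on wild type replicate 1 and 11.8 to 12.2 on the others. Bub1 was 15.5 on ad libitum replicate 2 and 0.681 to 1.43 on the others. Ube2c was 14.7 on calorie restricted replicate 2 and 2.01 to 3.18 on the others.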

How the results depend on the processing

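The fits of Mki67 and the counts of lowest means, arrays apart and markers without calorie restricted replicates 2 and 3 were added after seeing the data. Of the 25 called differences of members, 15 stayed called with each array left out in turn and 11 under all other alternatives that applied. Quantile normalization kept 25 of 25, the pseudocounts 24 each, the trend with a robust prior 23, no filter 20, the atrial marker covariate 18 and a fit of only the 2 groups compared 17. Averaging probe sets reversed 3 differences: Ccnd3 to 0.13 in calorie restriction against ad libitum feeding and to -0.082 in leptin against calorie restriction, and Dut, not called before, to 0.37 (limma adjusted p = 0.0134) in the latter.

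Members called in ad libitum feeding against wild type (1) fell to 0 with the lower pseudocount, with no filter, with a filter at the 60th percentile and with only the 2 groups, and to 0 with any array left out. Genes called over all genes were 40 in the main fit, 35, 13, 58 and 8 in those fits, and 5 to 26 with an array left out. In leptin against ad libitum feeding (1) the count was 2 with the higher pseudocount, the 60th percentile filter, quantile normalization and the trend, 0 with only the 2 groups, and 0 to 1 with an array left out. Over all genes the calls were 86 in the main fit and 102, 132, 111, 167, 8 and 35 to 88 in the same order. In calorie restriction against ad libitum feeding (5) the member count was 2 with the atrial covariate, 3 with only the 2 groups, 2 without calorie restricted replicates 2 and 3, and 5 to 6 with 1 array left out. Calls over all genes were 724 in the main fit and 273, 353, 352 and 444 to 735 in those. In leptin against calorie restriction (10) the member count was 5 with the 60th percentile filter, which left 22 members, 6 without those replicates, and 7 to 11 with 1 array left out. Calls over all genes were 1822 in the main fit and 1979, 1026 and 1378 to 1662 in those. In calorie restriction against wild type (8) the member count was 3 without those replicates and 6 to 9 with 1 array left out. Calls over all genes were 1504 in the main fit and 891 and 1041 to 1459 in those. In leptin against wild type the member count was 0 in every fit.

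Other cell cycle genes called in calorie restriction against ad libitum feeding (2) numbered 1 with averaged probe sets, 0 with the atrial covariate, 0 without calorie restricted replicates 2 and 3, and 0 to 2 with 1 array left out. In leptin against calorie restriction (7) they numbered 4 with no filter, 4 without those replicates and 4 to 7 with 1 array left out, in calorie restriction against wild type (7) 3 with averaged probe sets, 4 without those replicates and 5 to 8 with 1 array left out, and in leptin against ad libitum feeding (0) 0 to 1 with 1 array left out. Over all genes, averaged probe sets called 535 in calorie restriction against ad libitum feeding and 1118 against wild type. No filter gave 1477 in leptin against calorie restriction. The causes were not tested.

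With the replicate number as a block, although the numbers gave no sign of pairing, members called were 1 in ad libitum feeding against wild type, 0 in leptin against ad libitum feeding, 5 in calorie restriction against ad libitum feeding, 10 in leptin against calorie restriction, 0 in leptin against wild type and 8 in calorie restriction against wild type. Other cell cycle genes called in calorie restriction against ad libitum feeding were then 1. Over all genes, the block called 11, 23, 512, 1573, 1 and 1228 in the order of the member counts. The main fit called 40, 86, 724, 1822, 1 and 1504.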
